A study of Mus musculus with 161 samples.

Results

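Chromosome conformation capture carbon copy (5C) measures how often pairs of HindIII fragments, 1 with a forward and 1 with a reverse primer, were ligated to each other, here along the region around Xist and Tsix on mouse chromosome X. The libraries of line EN297.3, whose CTCF transgene carries the substitutions Y226A and F228A (2 libraries), were set against the libraries of line EN186.4 and line EN186.6, whose transgene lacks residues 1 to 265 (Del_1-265, clone 1 with 6 libraries and clone 2 with 4). These 12 libraries are all members of the comparison, chosen by the line named in their labels, out of 91 5C libraries in the series. All lines derive from male E14Tg2a mouse embryonic stem cells in which endogenous CTCF is fused to an auxin-inducible degron (AID) and Tir1 is present, and each carries a TetO-driven CTCF cDNA with an rtTA. Before 5C, cells of all 12 libraries were kept for 4 days in auxin, which degrades endogenous CTCF, together with doxycycline (dox), which induces the cDNA. The double substitution is represented by 1 clone, and the amount of transgenic protein in each line was not analysed here, so a difference between the 2 proteins and a difference between the lines or in their expression cannot be told apart. For scale, the same values are given for 20 further libraries: full-length CTCF with auxin and dox (14), full-length with auxin and no dox (2), the transgene del_13-33-Y226A-F228A with auxin and dox (2), and line EN212.1, which lacks residues 179 to 265, with auxin and dox (2).

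CTCF binds DNA through its zinc fingers and halts cohesin, the ring complex that extrudes chromatin loops, so that contacts concentrate within domains and are depleted across their boundaries. The N-terminal part of CTCF, before the zinc fingers, faces oncoming cohesin, and the residues Y226 and F228 lie in a short motif that docks onto cohesin at the interface of its SA2 and RAD21 subunits. Del_1-265 removes this motif together with the rest of the N terminus, whereas Y226A-F228A leaves the N terminus in place and changes these positions alone. The comparison therefore asks whether the short change and the long deletion leave the same map.

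The Y226A-F228A libraries held 20186662 and 21902736 counts, and the Del_1-265 libraries between 4509541 and 23419010. Between them, 50.2% and 52.3% of primer pairs had no count in the Y226A-F228A libraries, inside the range of 32.1% to 61.5% over Del_1-265. Library numbers in the labels fall into runs. Of the Del_1-265 libraries, only replicates 5 and 6 of clone 1 share a run with the Y226A-F228A libraries. That run also holds 2 full-length libraries with dox and both del_13-33-Y226A-F228A libraries. Values of Y226A-F228A and Del_1-265 within this run, 2 libraries against 2, are given beside the main results. The smallest two-sided p that such a comparison can give is 0.333. With 2 libraries against 10 the smallest p is 0.0303, and nothing in the labels says that libraries of a line came from separate cultures, so p-values measure the spread between these libraries only.

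The map was read against 6 boundaries of 20 kb that the study's methods list (mm9). Boundary 1 (chrX:99151148-99171147) lies inside Nhsl2, boundary 2 (chrX:99411148-99431147) between Rps4x and Cited1, and boundary 3 (chrX:100451148-100471147) inside 4930519F16Rik. Boundary 4 (chrX:100671148-100691147) holds the start of Xist, the RNA that silences the X chromosome, and the end of its antisense partner Tsix. Boundary 5 (chrX:101211148-101231147) lies between Rlim, an activator of Xist, and C77370, and boundary 6 (chrX:103211148-103231147) holds Cox7b and the start of the copper transporter gene Atp7a. A list of FLAG-CTCF peaks from the full-length line, 200 bases wide each, puts 11 peaks in 5 of the 6 boundary bins and none in boundary 5. A core of the CTCF motif, spelled as CC, any 3 letters, AG, any 2 letters and GGC, was searched on both strands and occurs in 50.8% of all 49682 peaks, in 39 of the 78 peaks of the region and in 8 of the 11 in boundary bins. All 8 boundary peaks with the motif hold it on the forward strand, against 21 forward and 18 reverse in the region. Orientation matters because, in the study's model, the N terminus acts on cohesin retention on a single side of the site. In that model cohesin halts at bound CTCF in either orientation. Sequences of 6 of these peaks are shown, at boundaries 2 and 6, where the corrected insulation scores of the lines differed most, at boundary 3 and at boundary 4, where the groups overlapped. They are the forward strand of the mm9 reference (NCBIM37), with the motif in capitals.
Boundary 2, chrX:99414572-99414771, intergenic: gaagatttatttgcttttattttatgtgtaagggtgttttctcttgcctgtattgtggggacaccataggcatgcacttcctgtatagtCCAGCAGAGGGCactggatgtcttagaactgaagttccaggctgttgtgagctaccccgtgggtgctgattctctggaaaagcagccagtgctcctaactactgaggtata
Boundary 2, chrX:99415083-99415282, intergenic: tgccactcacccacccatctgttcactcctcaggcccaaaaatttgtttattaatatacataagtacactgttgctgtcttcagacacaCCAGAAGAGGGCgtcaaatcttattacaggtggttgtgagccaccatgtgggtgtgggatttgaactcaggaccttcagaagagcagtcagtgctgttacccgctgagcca
Boundary 3, chrX:100455304-100455503, intron of 4930519F16Rik: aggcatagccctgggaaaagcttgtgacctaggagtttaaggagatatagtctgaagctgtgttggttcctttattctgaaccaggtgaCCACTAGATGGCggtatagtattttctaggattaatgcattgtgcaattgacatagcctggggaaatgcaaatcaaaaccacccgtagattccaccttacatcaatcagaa
Boundary 4, chrX:100676984-100677183, in exons of Xist and Tsix: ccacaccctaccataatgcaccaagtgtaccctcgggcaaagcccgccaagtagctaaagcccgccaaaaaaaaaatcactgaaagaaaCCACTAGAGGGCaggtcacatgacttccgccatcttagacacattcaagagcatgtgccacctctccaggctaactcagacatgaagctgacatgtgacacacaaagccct
Boundary 6, chrX:103214234-103214433, intron of Cox7b: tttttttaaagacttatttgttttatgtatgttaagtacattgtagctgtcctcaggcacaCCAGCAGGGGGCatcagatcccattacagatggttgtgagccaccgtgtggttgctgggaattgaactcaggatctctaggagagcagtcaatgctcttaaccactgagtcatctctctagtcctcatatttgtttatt
Boundary 6, chrX:103221845-103222044, intergenic: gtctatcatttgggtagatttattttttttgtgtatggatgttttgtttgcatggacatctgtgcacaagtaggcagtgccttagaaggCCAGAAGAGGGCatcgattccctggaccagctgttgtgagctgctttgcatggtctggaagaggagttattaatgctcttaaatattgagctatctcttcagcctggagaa

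Insulation at the boundaries was lower with Y226A-F228A than with Del_1-265. For the insulation score, contacts between the 100 kb before a bin and the 100 kb after it were averaged and divided by the average over all bins, and the log2 of this ratio was given the opposite sign, so that a higher score means fewer contacts across the bin. Averaged over the 6 boundaries it was 0.388 and 0.366 in the Y226A-F228A libraries. In Del_1-265 clone 1 it was 0.483, 0.464, 0.469, 0.463, 0.462 and 0.489, and in clone 2 it was 0.517, 0.512, 0.485 and 0.482. Both Y226A-F228A libraries lay below all 10 Del_1-265 libraries. The means were 0.377 ± 0.0160 (SD, n = 2) and 0.482 ± 0.0196 (SD, n = 10), a difference of -0.105 with a 95% interval from -0.151 to -0.0732 (exact permutation test, two-sided, p = 0.0303, adjusted p = 0.0303 over 3 comparisons). Within the shared run the difference was -0.0981, and there too both Y226A-F228A libraries were the lower ones.

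Both lines stood below the full-length line, whose 14 libraries ranged from 0.542 to 0.708 with a mean of 0.607 ± 0.0397 (SD). Y226A-F228A was lower than full-length by -0.23 on this scale (95% interval -0.308 to -0.180, exact permutation test, two-sided, adjusted p = 0.025), and Del_1-265 by -0.125 (permutation test with 100000 resamples, two-sided, p = 2e-05, the smallest the resamples can give, adjusted p = 6e-05). Both comparisons share the full-length libraries. Without dox, that is with no CTCF induced, the full-length line gave 0.373 and 0.384, and the Y226A-F228A values of 0.366 and 0.388 lie on either side of these. The libraries without dox belong to a different run of library numbers from the Y226A-F228A libraries. Whether an offset between runs adds to this closeness, here and in the values below, was not tested. Both further mutant lines had means between those of Y226A-F228A and Del_1-265. The scores were 0.4497 and 0.467 with del_13-33-Y226A-F228A and 0.440 and 0.420 with the deletion of residues 179 to 265.

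**Figure D1:**
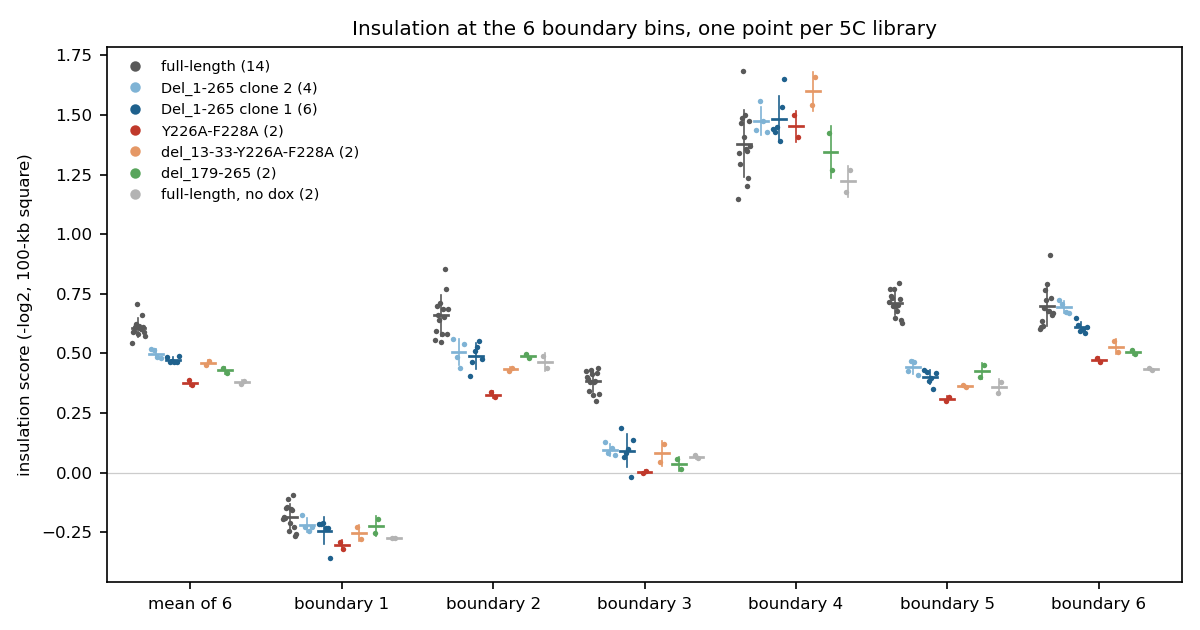
Insulation score (no unit, minus log2) for the mean of 6 boundaries and for each boundary, with 1 point per 5C library, a horizontal line at the group mean and a vertical line of 1 SD to each side. For the mean, the 2 Y226A-F228A libraries (0.388 and 0.366) lie below all Del_1-265 libraries (0.462 to 0.517), and at boundary 4 the groups overlap.

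In the corrected signal, the groups did not overlap at boundaries 2, 5 and 6. At boundary 6 (Cox7b and Atp7a) the scores were 0.482 and 0.463 with Y226A-F228A. Del_1-265 gave 0.648, 0.619, 0.595, 0.6002, 0.586 and 0.609 in clone 1 and 0.722, 0.709, 0.674 and 0.669 in clone 2. No Del_1-265 library came near the Y226A-F228A pair, and the clones themselves did not overlap here. The difference was -0.170 (95% interval -0.259 to -0.104). At boundary 2, between Rps4x and Cited1, Y226A-F228A had 0.337 and 0.317, against 0.403 to 0.561 in Del_1-265 with a median of 0.497. The groups did not overlap, and the difference was -0.169 (95% interval -0.244 to -0.0661). At boundary 5, beside Rlim, the scores were 0.302 and 0.319 against 0.349 to 0.469, a difference of -0.106 (95% interval -0.167 to -0.0300). Each of these 3 boundaries gave the smallest possible p, and the adjusted p over 6 boundaries was 0.0606 (exact permutation test, two-sided), so none passed by this test.

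At the other 3 boundaries the groups overlapped. At boundary 3, inside 4930519F16Rik, the Y226A-F228A libraries had -0.000970 and 0.00806 and the Del_1-265 libraries -0.0184 to 0.189, a difference of -0.0905 (95% interval -0.190 to 0.0265). At boundary 1, inside Nhsl2, the difference was -0.0691 (95% interval -0.143 to 0.0694). Boundary 1 scored below 0 in every group, so the bin that the study lists had more contacts across it than the average bin. Boundary 4, at Xist and Tsix, had the highest score of the 6 in every group. It stood at 1.50 and 1.41 with Y226A-F228A, inside the range of 1.39 to 1.65 with Del_1-265 and of 1.15 to 1.68 with full-length CTCF, with a difference of -0.0263 (95% interval -0.245 to 0.107). Within the shared run, however, both Y226A-F228A libraries were below the 2 Del_1-265 libraries there (1.53 and 1.65), by -0.140. The order of the boundaries depended on the processing and the libraries. From counts without iterative correction, the differences were -0.0259, -0.0160, -0.149, -0.0207, -0.108 and -0.197 for boundaries 1 to 6, and the groups then overlapped at boundary 2. Within the shared run they were -0.187 at boundary 2, -0.0718 at boundary 5 and -0.125 at boundary 6.

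Over the whole profile, 26 of the 193 scored bins were lower in Y226A-F228A (13.5%) and 22 were higher (11.4%) at an adjusted p under 0.05 (limma). Both Y226A-F228A libraries lay below all 10 Del_1-265 libraries in 26 bins (13.5%) and above them in 24 (12.4%). Against this background, 3 of the 6 boundary bins were called lower, those of boundaries 2, 5 and 6, with adjusted p-values of 0.00321, 0.0223 and 0.00294 (limma). Of the bins directly before a boundary 4 of 6 were lower (boundaries 1, 2, 3 and 6), and of those directly after a boundary none was called. Within 100 kb of a boundary 16 of 65 bins were lower and 6 higher, whereas farther away 10 of 128 were lower and 16 higher. Scored from counts without iterative correction, 1 bin was higher and 2 were lower. The calls also rest on both Y226A-F228A libraries, with 14 higher and 14 lower without replicate 1 and 2 higher and 7 lower without replicate 2.

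The called bins formed 23 stretches, 12 lower and 11 higher, of which 10 were single bins. The lower stretch at boundary 2 ran over 4 bins from Ercc6l to the boundary itself. The lower stretch before boundary 3 covered 3 bins inside 4930519F16Rik and stopped at the boundary bin. The longest, with 5 bins, lay over Atrx and Magt1, and 1 bin separated it from a further pair at boundary 6. Among higher stretches, those of 4 bins lay before and over Rlim, upstream of boundary 5, and over Magee2 inside the long segment between boundaries 5 and 6.

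Of the bins lower in Y226A-F228A, the 5 with the largest differences were before boundaries 2, 3 and 6. In the bin 40 kb before boundary 3 (chrX:100411148-100431147) the scores were -0.112 and -0.0665, against 0.0483 to 0.239 in Del_1-265, a difference of -0.23 ± 0.0394 (SE, limma, adjusted p = 0.000875). The bin 20 kb before that boundary differed by -0.20 (adjusted p = 0.00185), and in full-length cells its mean score was 0.298. Over Atrx, the bins 120 kb and 100 kb before boundary 6 both differed by -0.22 (adjusted p = 0.000374 and 0.000678). Here the mean of Del_1-265, 0.0636 in the bin 120 kb before the boundary, was above that of full-length CTCF, 0.0302, and Y226A-F228A was at -0.159. The bin directly before boundary 2 differed by -0.19 (adjusted p = 0.00197).

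No boundary bin and no bin next to a boundary was higher. The difference was 0.18 ± 0.0426 (SE) in the bin over Magee2 (chrX:102031148-102051147, adjusted p = 0.00407, limma), although 1 of the 2 Y226A-F228A libraries overlapped Del_1-265 there. It was 0.16 in a bin over Hdac8 (chrX:99631148-99651147, adjusted p = 0.00334) and 0.15 in bins over Atp7a, 240 kb before boundary 6, and 80 kb before boundary 5 (adjusted p = 0.00185, 0.00538 and 0.00321). In the last of these, which holds 1 FLAG-CTCF peak, the scores were 0.451 and 0.555 with Y226A-F228A, 0.310 to 0.401 with Del_1-265 and on average 0.621 without dox. The scores of whole profiles remained close, with a Pearson correlation across the 193 bins of 0.987 between the Y226A-F228A libraries, 0.960 to 0.994 among the Del_1-265 libraries and 0.955 to 0.976 between them, where neighbouring bins share contacts and are not independent.

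**Figure D2:**
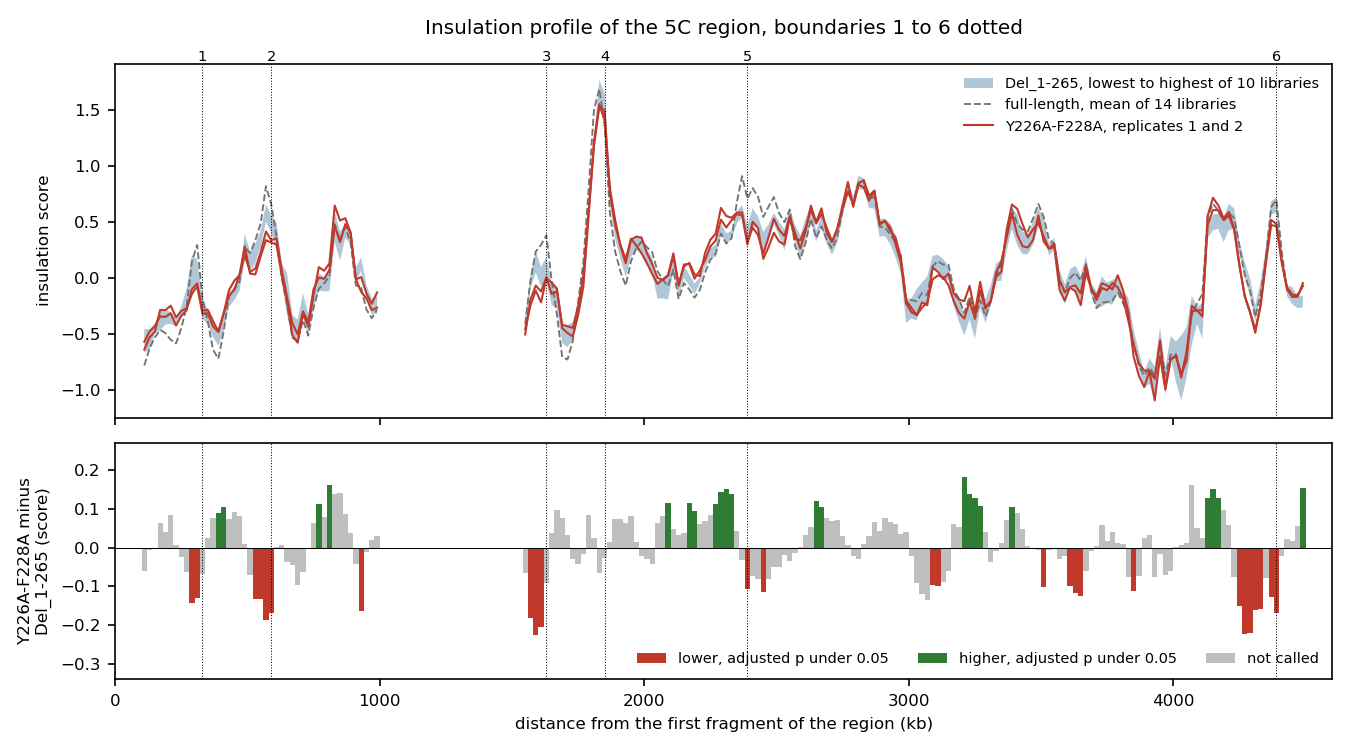
Upper panel, insulation score of each 20-kb bin against distance from the first fragment of the region (kb), with the range of 10 Del_1-265 libraries shaded, both Y226A-F228A libraries in red and the mean of 14 full-length libraries dashed. Lower panel, difference in mean score, coloured where called by limma, and left blank where under 50% of the square was measured. Called were 26 bins lower and 22 higher. The deepest lower bars are close before boundary 3 and, farther upstream of boundary 6, over Atrx.

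Contacts between neighbouring segments were higher with Y226A-F228A across boundaries 2, 3, 5 and 6. The boundaries cut the region into 7 segments, and contacts between bins on either side of a boundary, up to 1000 kb apart, were summed and divided by the sum expected from their distances in the same library, then given as log2 (observed/expected). For segments 2 and 3, on either side of boundary 2, this was -0.161 and -0.160 in Y226A-F228A. In Del_1-265 clone 1 it was -0.339, -0.339, -0.353, -0.364, -0.366 and -0.337, and in clone 2 it was -0.298, -0.374, -0.380 and -0.367. The 2 Y226A-F228A libraries were nearly equal and lay above all others, by 0.19 (95% interval 0.137 to 0.220, exact permutation test, two-sided, adjusted p = 0.0455 over 6 pairs of segments), or 1.14-fold.

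The same held for 3 more pairs. For segments 5 and 6, which meet at boundary 5 beside Rlim, the values were -0.179 and -0.180 with Y226A-F228A against -0.376 to -0.312 with Del_1-265, a difference of 0.16 (95% interval 0.132 to 0.197). For segments 3 and 4, which meet at boundary 3, they were 0.194 and 0.207 against -0.0128 to 0.128, also a difference of 0.16 (95% interval 0.0663 to 0.220). For segments 6 and 7, across boundary 6, they were -0.0712 and -0.0992 against -0.282 to -0.206, a difference of 0.15 (95% interval 0.107 to 0.211). In each of these the groups did not overlap and the adjusted p was 0.0455 (exact permutation test, two-sided). Over all single bin pairs of the map, 3.70% lay above all Del_1-265 libraries in both Y226A-F228A libraries. Each segment value sums 192 to 887 bin pairs, so this share is not a like background for it. Within the shared run the differences were 0.19, 0.14, 0.13 and 0.19 for boundaries 2, 5, 3 and 6, and all libraries kept the same order. Without any 1 of the Del_1-265 libraries the smallest p is 0.0364, which does not pass after adjustment (0.0545 where 4 of 6 pairs reach it). With each of the 12 libraries left out in turn, the 4 differences ranged from 0.13 to 0.20.

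Across boundary 1 and across boundary 4 the groups overlapped. Segments 1 and 2 gave 0.337 and 0.368 with Y226A-F228A and 0.292 to 0.388 with Del_1-265, a difference of 0.031 (95% interval -0.0509 to 0.0760). Segments 4 and 5, which meet at Xist and Tsix, had the fewest contacts for their distance of all pairs. The values were -1.15 and -1.12 with Y226A-F228A, -1.20 to -0.970 with Del_1-265 and -1.20 to -0.836 with full-length CTCF, and the difference between the 2 mutants was -0.075 (95% interval -0.179 to 0.0793).

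Relative to full-length CTCF, the 2 mutants differed from boundary to boundary. Across boundary 5 both were above the full-length range of -0.740 to -0.534. Across boundaries 2 and 3, in contrast, Del_1-265 (means -0.352 and 0.0407) lay inside or near the full-length ranges of -0.406 to -0.293 and -0.104 to 0.0903, while Y226A-F228A lay above both ranges. Across boundary 6 both mutants were below the full-length range of -0.0166 to 0.140, so that Y226A-F228A was the closer of the 2 to full-length there. Without dox the means were -0.178, 0.202, -0.267 and -0.0692 for boundaries 2, 3, 5 and 6, beside -0.161, 0.200, -0.180 and -0.0852 with Y226A-F228A. These comparisons with the reference groups are descriptions and were not tested.

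**Figure D3:**
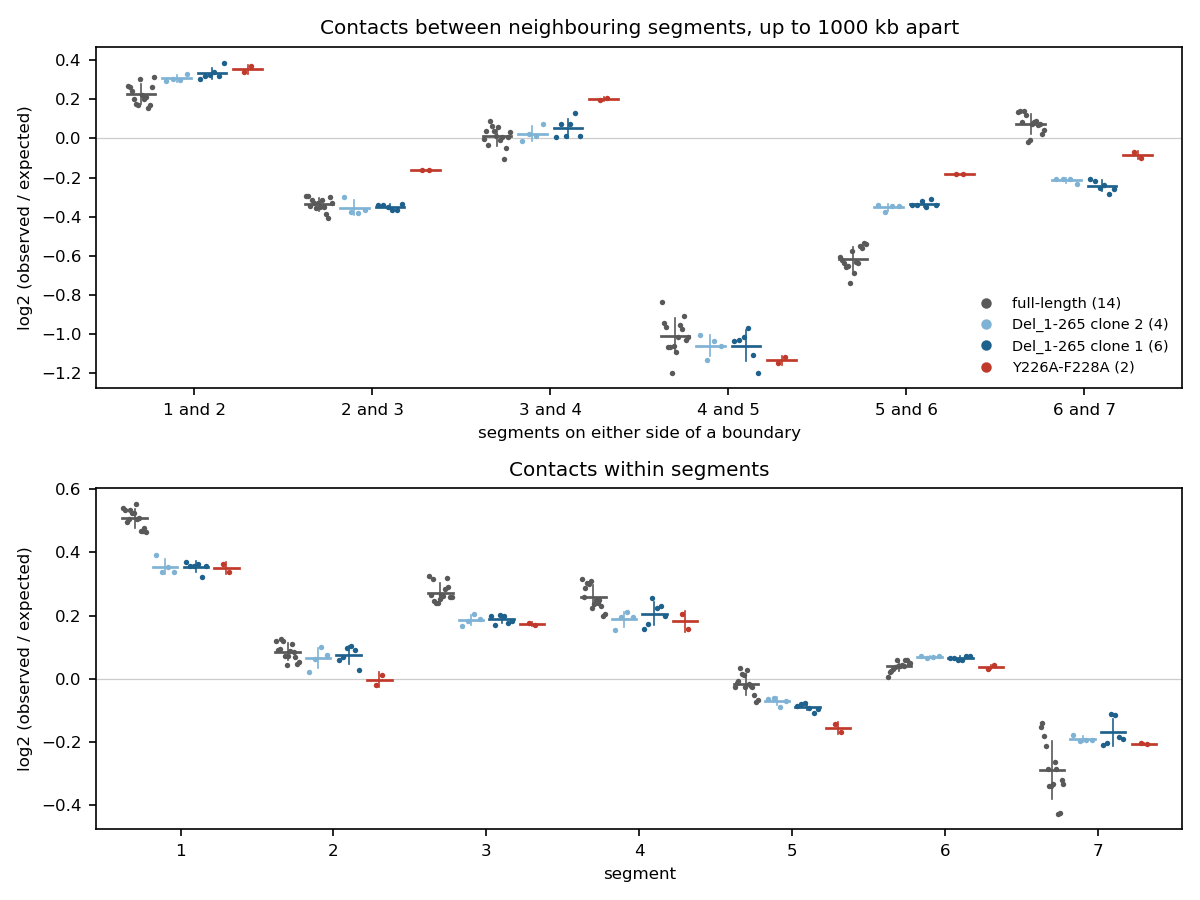
Log2 (observed/expected) contacts between neighbouring segments (upper panel) and within segments (lower panel), with 1 point per 5C library, a horizontal line at the group mean and a vertical line of 1 SD to each side. Y226A-F228A lies above every Del_1-265 library for segments 2 and 3, 3 and 4, 5 and 6, and 6 and 7.

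Contacts within segments differed less. The expected contact is each library's own mean at that distance, so higher contacts across boundaries tend to lower the values within segments. Values within and between segments are therefore not independent. In segment 5, between Xist and boundary 5, log2 (observed/expected) was -0.144 and -0.169 with Y226A-F228A and -0.108 to -0.0614 with Del_1-265, a difference of -0.074 (95% interval -0.108 to -0.0361). In segment 2, which starts inside Nhsl2 and ends at boundary 2, it was -0.0208 and 0.0130 against 0.0221 to 0.103. The difference was again -0.075 (95% interval -0.124 to -0.00915). In segment 6, the longest with 1980 kb, it was 0.0319 and 0.0421 against 0.0587 to 0.0728, a difference of -0.030 (95% interval -0.0409 to -0.0166). In these 3 segments both Y226A-F228A libraries were below all Del_1-265 libraries, yet the adjusted p was 0.0707 over 7 segments (exact permutation test, two-sided), so none passed. In segments 1, 3, 4 and 7 the groups overlapped, with differences between -0.028 and -0.0046. Segment 4, which holds Tsx, Tsix and most of Xist, had 0.205 and 0.158 with Y226A-F228A and 0.154 to 0.254 with Del_1-265.

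By distance, Y226A-F228A had larger shares of contacts in the middle range. Contacts 400 to 800 kb apart made up 17.3% and 17.5% of binned contacts in Y226A-F228A. In Del_1-265 they made up 15.9% to 16.5%, with no overlap, and the difference was 1.13 percentage points (95% interval 0.831 to 1.54). At 200 to 400 kb the shares were 19.3% and 18.8% against 18.1% to 18.7%, a difference of 0.523 points (95% interval 0.0799 to 1.11). Beyond 1600 kb they were 7.55% and 7.72% against 8.12% to 10.3%, a difference of -1.21 points (95% interval -2.78 to -0.399). In these 3 classes the groups did not overlap, and the adjusted p of 0.0606 over 6 classes did not pass (exact permutation test, two-sided). In full-length cells the share beyond 1600 kb alone ranged from 6.33% to 11.6%, wider than the difference between the mutants. Without Del_1-265 clone 2 replicate 1, whose share of 10.3% was the highest, all 6 classes passed at an adjusted p under 0.05, with 3 higher and 3 lower. Every library was left out in turn, and this removal is given because it changed the calls. The 6 shares add up to the same total in each library, so a rise in some classes forces a fall in others.

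When bin pairs were split by both distance and boundaries, the excess lay mostly in contacts that cross exactly 1 boundary. Bin pairs 400 to 800 kb apart that cross 1 boundary had a mean contact of 1.08 and 1.08, relative to the mean over all bin pairs, in Y226A-F228A, and of 0.9195 to 0.964 in Del_1-265. The Y226A-F228A mean was 15.5% higher. At 200 to 400 kb it was 12.7% higher (2.12 and 2.10 against 1.84 to 1.92), at 800 to 1600 kb 11.97% higher, and at 40 to 200 kb 4.45% higher, each without overlap. Pairs of the same distances within 1 segment differed by -3.00% at 40 to 200 kb, -1.34% at 200 to 400 kb, 2.43% at 400 to 800 kb and -1.29% at 800 to 1600 kb, and only at 400 to 800 kb did the groups not overlap. For pairs that cross 2 or more boundaries the difference was 1.90% at 200 to 400 kb and 4.04% at 800 to 1600 kb, where the groups overlapped, and 9.42% at 400 to 800 kb and -15.9% beyond 1600 kb, where they did not. Beyond 1600 kb the difference was -5.13% for pairs that cross 1 boundary and -11.7% for pairs within a segment, both with overlap.

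Dividing the mean contact of bin pairs that cross 1 boundary by that of pairs that cross none, within each library, removes the total from both. At 40 to 200 kb this ratio was 0.623 to 0.625 with Y226A-F228A, 0.569 to 0.588 with Del_1-265, 0.506 to 0.577 with full-length CTCF and 0.623 in both libraries without dox. At 200 to 400 kb it was 0.884 to 0.895 with Y226A-F228A, 0.756 to 0.798 with Del_1-265, 0.703 to 0.793 with full-length CTCF and 0.857 to 0.865 without dox. Del_1-265 overlapped the full-length range in both of these classes and Y226A-F228A lay above it. At 400 to 800 kb the ratios were 0.809 to 0.822, 0.714 to 0.748, 0.654 to 0.766 and 0.815 to 0.825 in the same order. These splits by crossing were made after the values of the segments had been seen and are given without a test.

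**Figure D4:**
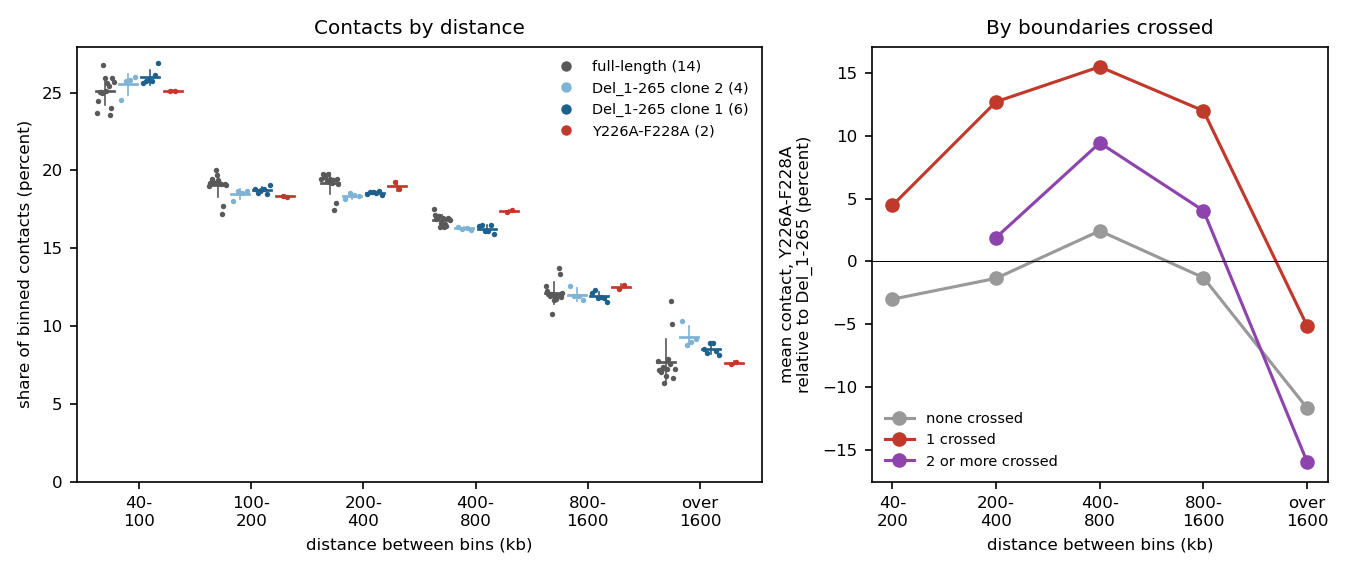
Left, share of binned contacts (percent) by distance between bins (kb), 1 point per library with group mean and 1 SD. Right, mean contact of Y226A-F228A relative to Del_1-265 (percent) by distance and by the number of boundaries crossed, where pairs that cross 1 boundary rise to 15.5% at 400 to 800 kb and pairs within a segment stay between -3.00% and 2.43% up to 1600 kb.

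Bins that both hold a FLAG-CTCF peak, 100 to 1000 kb apart, showed no detectable difference in contacts between the mutants. Over 344 such bin pairs log2 (observed/expected) was 0.255 and 0.260 with Y226A-F228A and 0.225 to 0.294 with Del_1-265. The difference was -0.0032 with a 95% interval from -0.0392 to 0.0357 (exact permutation test, two-sided, p = 0.909). With full-length CTCF the 14 libraries had 0.346 to 0.440, above all libraries of both mutants, and without dox the values were 0.324 and 0.341. The Y226A-F228A line was thus near the libraries without dox in mean insulation but below them in contacts between peak bins, and neither was tested.

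Single bin pairs carried little. Of 17874 bin pairs tested, 5 were lower in Y226A-F228A (0.0280%) and none was higher (0%) at an adjusted p under 0.05 (limma), with 956 lower and 720 higher at an unadjusted p under 0.05. Both Y226A-F228A libraries lay below all Del_1-265 libraries in 2.79% of pairs. Of the 5 called pairs, 4 rest on 1 or 2 primer pairs that had no count in either Y226A-F228A library and from 3 to 86 counts in the Del_1-265 libraries, and no fold is given for them. Only the pair of bins 40 kb apart over Chic1 and Tsx (chrX:100591148-100611147) and over Tsix (chrX:100631148-100651147), which rests on 36 primer pairs, was well measured. Its contact was 9.85 and 9.30 times the library mean with Y226A-F228A and 12.4 to 13.8 times with Del_1-265, a log2 difference of -0.45 ± 0.0613 (SE, adjusted p = 0.0249). This pair lies inside segment 4, next to Xist.

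With bins of 40 kb, which hold more counts, 40 of 4785 pairs were called, 25 higher and 15 lower (limma). Of the higher pairs 20 had exactly 1 boundary bin between them, among 1220 tested pairs of this kind (1.64%). A further 3 had none, among 1612 (0.186%), and 2 had 2 or more, among 1953 (0.102%). The share called higher over all tested pairs was 0.522%. Boundary bins at an end of a pair were not counted as between, and some of the higher pairs have such an end. All 25 higher pairs were at most 1000 kb apart. Of these 20 pairs, 7 crossed boundary 6, 4 crossed boundary 5 and 4 crossed boundary 2. A further 5 crossed boundary 3 at distances of 160 to 960 kb, and none crossed boundary 1 or boundary 4 alone. Tested pairs were not counted for each boundary, so these counts cannot be compared between boundaries. The log2 differences of all higher pairs ran from 0.27 to 0.87. Of the 15 lower pairs 10 were over 1000 kb apart, as were 2649 of the 4785 tested pairs. The share called lower was 0.378% at this distance and 0.313% over all tested pairs. Across all pairs with 1 boundary bin between, the median log2 difference was 0.13, against -0.0040 with none and -0.059 with 2 or more.

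**Figure D5:**
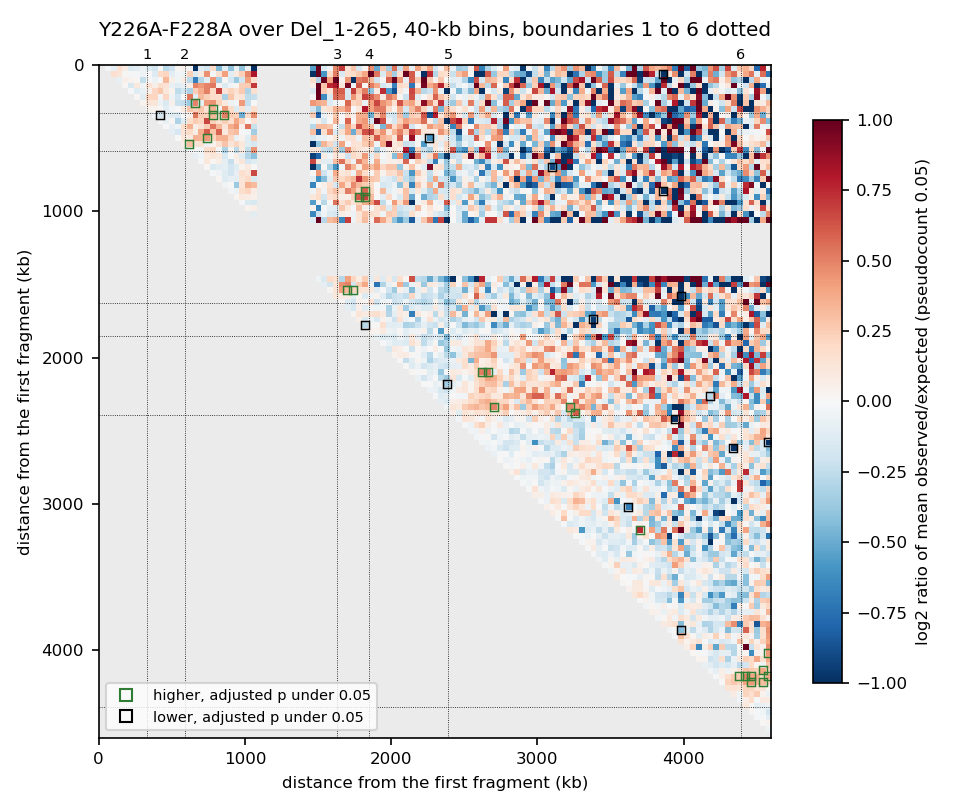
Log2 ratio of mean observed/expected contact, Y226A-F228A over Del_1-265, in bins of 40 kb, both axes as distance from the first fragment of the region (kb), with boundaries dotted, grey where there are no data, and squares on the 25 higher and 15 lower pairs that limma called. Warm colours predominate in the blocks near the diagonal across boundaries 2, 3, 5 and 6, and single pairs beyond 1600 kb scatter in both directions.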

How the data were processed

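The 5C libraries were made with HindIII and alternating forward and reverse primers. The authors deposited raw counts for each primer pair and a second matrix in which the signal is the count after their iterative correction. The submitters' processing notes name Bowtie2, SAMtools, mm9 and mm10 without roles. Both were read as deposited, the FLAG-CTCF peak coordinates likewise. Count matrices that stop before their last primer (3 libraries of the full-length line, 2 with dox and 1 without) were left out of steps that start from counts. Among the 12 libraries compared, at most 4.03% of primer pairs with counts in both of 2 libraries had equal counts, so none was treated as a duplicate.

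The deposited corrected signal was binned at 20 kb from the first fragment by its mean over primer pairs, and the main diagonal and the one next to it were set to the mean of the latter. Scores needed 50% of a square measured. Each library's mean at a given bin distance served as the expected contact. Single values were compared with exact permutation tests (scipy 1.17.1), with 95% intervals from inverting the test and Benjamini-Hochberg adjustment within each family, and profile and map with limma 3.58.1 in R 4.3.3, on scores and on log2 (value scaled to a library mean of 1 + 0.05) for pairs with a mean of at least 0.1. The limma steps were tested on simulated data. Genes are from GENCODE vM1 (mm9). The lines, boundaries and tests were chosen with earlier results of these data known. Named were the boundary bins and their neighbours, all segments and distance classes, and up to 5 called bins or pairs in each direction. Alternatives were raw counts, own iterative correction, medians, other squares, bins, filters and pseudocounts, each clone alone, blocks by replicate number or by run, centring on full-length libraries of the run, and each library left out.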

Additional observations from a re-analysis of the deposited data

Results flagged for a closer look

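Among 27 values tested for a library far from the rest of the 10 Del_1-265 libraries, 4 were marked by the gap to the nearest library over the whole range (above 0.466), a rule by which chance marks about 1 group in 20. Replicate 6 of clone 1 had the lowest score at boundary 1, -0.359 with the next at -0.244, and the highest contact between segments 1 and 2, 0.388 with the next at 0.340. Without it, the bin of boundary 1 was called lower in Y226A-F228A, by -0.0829 (limma, adjusted p = 0.0398), whereas it was not called with all libraries (adjusted p = 0.163). Replicate 1 of clone 2 had the highest contact between segments 2 and 3, -0.298 with the next at -0.337, still below both Y226A-F228A libraries, and the highest share of contacts beyond 1600 kb, 10.3% with the next at 9.20%.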

How the results depend on the processing

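Lower mean insulation in Y226A-F228A kept its direction under every alternative run, and both raw counts and own iterative correction kept its call. Designs too small to reach 0.05 gave -0.0943 with clone 1 alone (p = 0.0714, exact permutation test), -0.122 with clone 2 alone (p = 0.133) and -0.0981 within the run of library numbers (p = 0.333). Without single libraries the difference lay between -0.117 and -0.0939. The call was kept without any single Del_1-265 library (exact permutation test, p = 0.0364). Removal of a Y226A-F228A library leaves a design too small to reach 0.05. With the replicate number as a block the difference was -0.117 (exact permutation test, p = 0.222, the smallest possible). The correlation of profile deviations between equal replicate numbers was -0.210, -0.0505, -0.0881 and 0.0555. Deviations of the 2 Y226A-F228A libraries mirror each other, so unequal numbers gave the same values with the opposite sign. Whether equal numbers pair the libraries cannot be told from these values. Centred on full-length libraries of the same run the difference was -0.0766, still called.

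Of single boundaries 0 passed, but 4 passed with a 200-kb square, 5 with the log2 ratio of contacts within to across, and 4 in the bins directly upstream. Boundary 1 reversed on centring (0.0102), and boundary 4 reversed with a 200-kb square (0.0275) and ranged from -0.0724 to 0.0198 without single libraries. Of neighbouring segments 4 passed, and 0 passed with either clone alone, with either block, or without any single library, where the smallest p of each design, reached by 4 of 6 pairs, is above 0.05 after adjustment. The 4 differences stayed between 0.13 and 0.20 without single libraries and were 0.19, 0.13, 0.14 and 0.19 within the run. Segments 1 and 2 reversed on centring (-0.0309) and within the run (-0.00193), and segments 4 and 5 within the run (0.0174). Within segments, segment 1 reversed on centring (0.0337), within the run (0.0102), from raw counts (0.0245), with medians (0.0125) and ranged from -0.0185 to 0.00931 without single libraries. Segment 4 reversed on centring (0.0295), with the replicate block (0.0116) and ranged from -0.0416 to 0.00571 without single libraries, and segment 7 on centring (0.00397). The class of 100 to 200 kb reversed from raw counts (0.00737 points). Of distance classes 0 passed in either direction, and between 0 and 3 passed in each when single libraries were left out. The contact of peak bins, near 0, reversed on centring (0.0178), from raw counts (0.00834), with medians (0.00906), with peaks up to 1 bin away (0.0122) and ranged from -0.00724 to 0.000499 without single libraries.

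In the profile, 22 bins were higher and 26 lower. There were 14 and 16 with clone 1 alone, 9 and 16 with the replicate block, 9 and 11 with the run as block, 1 and 2 from raw counts, 12 and 14 with medians, 51 and 41 with a 200-kb square, and 17 lower on centring. Leaving out single libraries gave 2 to 31 higher and 7 to 30 lower, with 2 and 7 without Y226A-F228A replicate 2, 14 and 14 without its replicate 1, and 17 lower without Del_1-265 clone 2 replicate 3 or 4. In the map, 0 pairs were higher and 5 lower. Higher pairs numbered 8 with the run as block, 1 on centring, 1 with own correction, 1 without the filter, 2 at a pseudocount of 0.2 and 25 with 40-kb bins. Lower pairs numbered 0 with the replicate block, 2 on centring, 2 from raw counts, 8 with own correction, 12 at a pseudocount of 0.01, 2 at 0.2, 17 as observed over expected and 15 with 40-kb bins. Leaving out single libraries gave 0 to 4 higher and 3 to 25 lower, with 25 lower without Y226A-F228A replicate 1, 14 without its replicate 2 or without Del_1-265 clone 1 replicate 5, 9 without clone 1 replicate 3 or clone 2 replicate 1, 8 without clone 1 replicate 6 and 3 without clone 1 replicate 2. The cause of these changes was not tested, apart from designs with too few libraries for the threshold. Of single bin pairs, 8.32% and 8.98% were at 0 in the Y226A-F228A libraries, inside the range of 2.54% to 13.6% over Del_1-265. Whether depth set these shares was not tested.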

Other observations

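The line del_13-33-Y226A-F228A carries both substitutions and also lacks residues 13 to 33, and was sampled in the same run of library numbers. Its contacts between neighbouring segments lay between those of the other mutants at boundaries 2, 3 and 6. At boundaries 2 and 3 it had means of -0.284 and 0.0899 beside -0.161 and 0.200 for Y226A-F228A and -0.352 and 0.0407 for Del_1-265. Across boundary 6 its mean was -0.110, beside -0.0852 for Y226A-F228A and -0.231 for Del_1-265. Across boundary 5 its mean of -0.322 was inside the Del_1-265 range of -0.376 to -0.312. At boundary 4, its scores of 1.54 and 1.66 were the highest means of the lines used here. Both lines with the substitutions have 2 libraries each, against 10 of Del_1-265, and these values were not tested.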
